A study of Rattus norvegicus with 12 samples.

Results

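The 34 genes described here are a fixed set of cell cycle genes, named by symbol for their known roles, with earlier results of these data known. Probes were matched to genes through their RefSeq transcript accessions, and 30 of the 34 genes had a matched probe. No probe was matched to Mki67, Top2a, Mcm5 or Bub1b, so these 4 are not analysed here. The 30 measured genes were tested within a table of 29603 features, of which 11689 carried a gene symbol. They comprise 13 genes of G1 and DNA replication and 17 genes of mitosis.

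The arrays measured RNA from the renal cortex of 12 male Sprague-Dawley (Crl:CD(SD)) rats, bought at 5 weeks of age, with 1 one-colour array per rat. The 4 groups of 3 rats were TBA (tert-butyl alcohol, a solvent and fuel additive metabolite) with CO2-O2 anesthesia, vehicle (water) with CO2-O2 anesthesia, TBA with isoflurane anesthesia, and vehicle with isoflurane anesthesia. TBA was given at 1000 mg/kg/day, treatment lasted 4 weeks in all groups, and each rat was bled under its gas 24 h after the last dose. All rats shared the strain, the sex, the basal diet and the light cycle, and the design text calls the 3 rats of a group biological replicates.

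Cells enter the cycle when D-type and then E-type cyclins activate their kinases, which releases E2F factors to switch on genes for DNA replication. Later, Cdk1 with cyclins A and B drives mitosis, and the anaphase-promoting complex ends it by destroying the cyclins. Most cells of the adult renal tubule are not dividing, and tubule cells can re-enter the cycle after injury. In a whole piece of cortex, fewer cells of a type and less RNA per cell cannot be told apart.

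The promoters of cell cycle genes carry short elements that are known to time their expression: a CCAAT box and a CHR element (cell cycle genes homology region) in many mitotic genes, and an E2F site in many replication genes. The stretches below are shown to set mitotic genes that varied together, with and without a CHR match, beside Kif11, which did not vary with them, and beside replication genes. Each is RefSeq sequence of build GRCr8, reads 5′ to 3′ on the strand of the gene and ends 1 base before the annotated start. Capitals mark matches on either strand to the CCAAT box, to the CHR element as TTTGAA or as TTCGAA, and to the E2F site as TTGGCGC or as TTCCCGC or as TTCGCGC or as TTGCCGC, and adjacent or overlapping matches run together. The last capitals of Mcm6 belong to a match that runs past the start. The stretches run from 60 bases (Mcm2) to 150 bases (Mcm6 and Mcm7), so some matches further upstream are not shown. Those left out include CHR matches of the replication genes Mcm2 and Mcm7, and E2F matches of the mitotic gene Cdk1. A CHR match of the mitotic gene Ccnb2 and an E2F match of Mcm7 are left out too. The counts over longer windows given below include all of these. The stretches lie at chr20:19265193-19265292 (plus strand) for Cdk1, chr2:33655226-33655325 (minus) for Ccnb1, chr8:79981659-79981798 (minus) for Ccnb2, chr5:137255800-137255899 (minus) for Cdc20, chr1:143659381-143659480 (plus) for Prc1, chr1:244536767-244536866 (plus) for Kif11, chr13:42404353-42404502 (minus) for Mcm6, chr12:22163179-22163328 (minus) for Mcm7 and chr4:122918095-122918154 (minus) for Mcm2.
Cdk1: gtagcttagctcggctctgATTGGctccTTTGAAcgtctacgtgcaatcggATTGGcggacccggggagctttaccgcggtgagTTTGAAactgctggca
Ccnb1: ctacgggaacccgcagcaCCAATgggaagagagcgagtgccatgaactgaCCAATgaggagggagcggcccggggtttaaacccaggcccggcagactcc
Ccnb2: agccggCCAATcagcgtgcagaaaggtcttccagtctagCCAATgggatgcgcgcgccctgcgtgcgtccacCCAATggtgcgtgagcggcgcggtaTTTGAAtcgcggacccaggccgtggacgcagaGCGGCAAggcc
Cdc20: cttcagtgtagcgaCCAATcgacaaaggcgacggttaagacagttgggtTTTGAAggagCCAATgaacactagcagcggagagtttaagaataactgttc
Prc1: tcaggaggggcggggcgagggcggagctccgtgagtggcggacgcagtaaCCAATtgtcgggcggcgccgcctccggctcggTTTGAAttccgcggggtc
Kif11: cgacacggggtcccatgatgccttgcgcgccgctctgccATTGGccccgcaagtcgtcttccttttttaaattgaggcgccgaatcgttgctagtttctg
Mcm6: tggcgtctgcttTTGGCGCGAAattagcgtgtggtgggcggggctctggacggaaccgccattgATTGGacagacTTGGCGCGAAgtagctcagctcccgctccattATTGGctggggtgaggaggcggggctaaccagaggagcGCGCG
Mcm7: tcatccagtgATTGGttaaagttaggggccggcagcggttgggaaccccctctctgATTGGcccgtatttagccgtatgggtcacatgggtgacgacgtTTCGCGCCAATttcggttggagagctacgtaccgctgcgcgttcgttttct
Mcm2: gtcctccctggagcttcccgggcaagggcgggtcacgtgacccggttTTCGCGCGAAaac

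RefSeq promoter windows, from 250 bases before to 50 after the start, were at hand for 22 of the 30 measured genes. A CCAAT match was present in 11 of 13 mitotic windows (84.6%) and in 6 of 9 G1 and replication windows (66.7%), against 37.7% of all 27457 windows. A CHR match was present in 8 of 13 mitotic windows (61.5%) and 3 of 9 G1 and replication windows (33.3%), against 19.5% of all windows. An E2F match was present in 2 of 13 mitotic windows (15.4%) and 6 of 9 G1 and replication windows (66.7%), against 2749 of the 27457 windows in all. The matches did not set Kif11 apart from the genes it failed to follow. Its window holds a CCAAT match and neither of the other elements, as do those of Ccnb1 and Kif20a, and the windows of Aurka and Bub1 hold no match. Across rats, Ccnb1, Kif20a, Aurka and Bub1 followed the mean of the other mitotic genes at r = 0.96, 0.98, 0.94 and 0.93 over 12 arrays, and Kif11 at -0.24. These are matches of letters in a window and were not tested as binding sites.

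Levels are given as log2 of the processed spot intensity minus the 75th percentile of the array, so a value of 0 is a spot as bright as that percentile, and a level of one gene says nothing about that of another. Between 61.6% and 71.0% of probes were well above background on an array. Of the 30 genes, 28 were well above background on all 12 arrays. Cdc6, which loads the replicative helicase, was so on 10 arrays, and Aurkb, the kinase of the chromosomal passenger complex, on 9. All 10 proximal tubule genes and all 5 podocyte genes of the marker lists passed the filter on dim probes. So did all 6 endothelium, 6 fibroblast and 7 macrophage genes. The filter kept 40216 of 61657 probes, so passing it does not test the renal cortex label. Of 3 slides, the first, scanned on a day of its own, carried TBA rat 3 and every vehicle rat of the CO2-O2 arm. The second carried TBA rats 1 and 2 of that arm with the vehicle rats of the isoflurane arm. The TBA rats of the isoflurane arm had the third to themselves. Under isoflurane, slide and treatment therefore cannot be told apart.

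**Figure D1:**
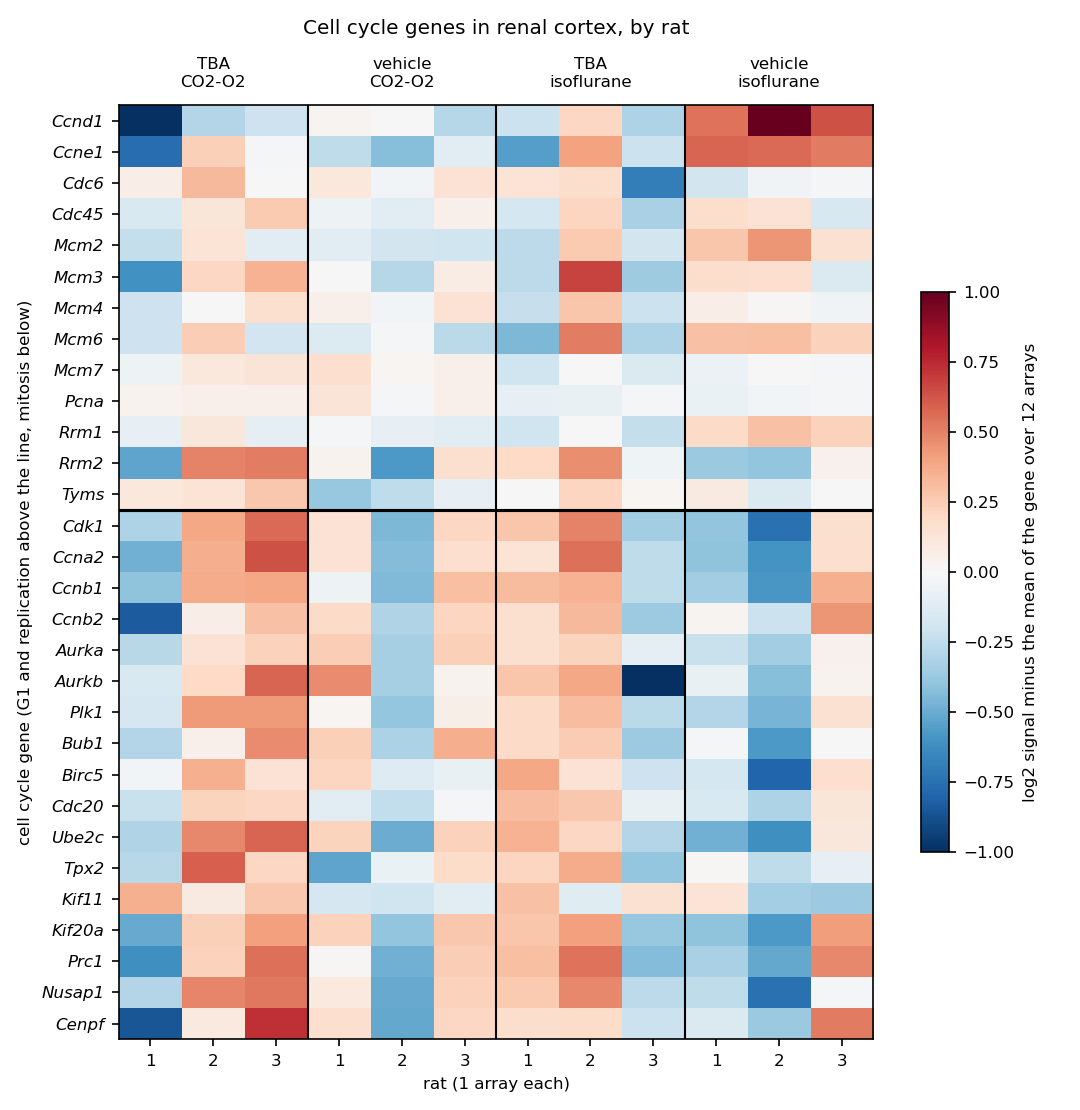
Level of each of the 30 measured cell cycle genes (rows, grouped by role) in each of the 12 rats (columns, 1 array each), as log2 signal minus the mean of that gene over all arrays. Nearly whole columns of mitotic genes are blue in TBA CO2-O2 rat 1, vehicle CO2-O2 rat 2, TBA isoflurane rat 3 and vehicle isoflurane rat 2. Most mitotic genes are blue in vehicle isoflurane rat 1 too. Kif11 does not follow the other mitotic genes.

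The first question was whether 4 weeks of TBA altered the cell cycle genes of the cortex. No gene of the set passed an adjusted p of 0.05 in any TBA comparison. With limma, 0 of 30 genes passed under CO2-O2, where 0.149% of all features did, 0 of 30 under isoflurane, where 0.395% did, and 0 of 30 for the mean of both anesthetics, where 1.88% did. At an unadjusted p under 0.05 there were 2 genes under CO2-O2 (14.3% of all features), 4 under isoflurane (17.8%) and 4 for the mean effect (19%). The shares of the set were below those of all features. The counts of all features past the adjusted threshold, 44, 117 and 558, moved widely with single rats. With 1 array left out they ran from 1 to 162 under CO2-O2, from 0 to 98 under isoflurane and from 73 to 992 for the mean effect, each highest without TBA CO2-O2 rat 3, and each at its lowest without vehicle CO2-O2 rat 1. In all 12 of these fits 0 of 30 genes passed. TBA CO2-O2 rat 3 was the only TBA rat on the slide of the CO2-O2 vehicle rats. Without it, slide and treatment cannot be told apart in that arm.

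Mitotic genes were mostly a little higher in TBA rats and none passed the test. The median log2 change of the 17 mitotic genes was 0.18 under CO2-O2 and 0.28 under isoflurane, against a median of 0.02 over all features in each, and 14 and 16 of the 17 were above 0, where 53.6% of all features were in each arm. The median of the 13 G1 and replication genes was 0.06 under CO2-O2 and -0.09 under isoflurane, with 9 and 2 of the 13 above 0. With slide as a fixed term the mitotic median under CO2-O2 was 0.45, in a fit that compares 1 TBA rat with the vehicle rats of its slide. The genes of a class shared much of their variation between rats, so these are not independent counts. Leaving out 1 rat could move these medians by more than 1.5 times. Under CO2-O2 the mitotic median was 0.44 without TBA rat 1, 0.10 without TBA rat 2, 0.05 without TBA rat 3, 0.02 without vehicle rat 2 and 0.29 without vehicle rat 3. Under isoflurane it was 0.49 without TBA rat 3, 0.13 without vehicle rat 2 and 0.46 without vehicle rat 3. The G1 and replication median under CO2-O2 was 0.17 without TBA rat 1, -0.04 without TBA rat 2, 0.02 without TBA rat 3 and 0.01 without vehicle rat 2. It was -0.30 under isoflurane without TBA rat 2, -0.04 without TBA rat 3 and -0.15 without vehicle rat 3.

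Most markers of the proximal tubule, the main cell type of the cortex, were higher in TBA rats, and few passed the test. Of its 10 genes, 8 were higher in TBA rats under CO2-O2 (median change 0.13), 10 under isoflurane (0.25) and 10 for the mean effect (0.19). Of all features, 53.6% were higher in each arm. The shares of all features past the test were 0.149% under CO2-O2, 0.395% under isoflurane and 1.88% for the mean effect. Those past the test (limma) were Slc5a12 under CO2-O2 (0.80 ± 0.12, SE, adjusted p = 0.0421), and Slc5a12 (0.68 ± 0.08, adjusted p = 0.00986) and Slc22a8 (0.38 ± 0.06, adjusted p = 0.0292) for the mean effect, both of them transporters, named after their values were seen. The mean level of the 9 genes measured on every array ran from 6.68 to 6.80 in TBA rats, against 6.43 to 6.53 in vehicle rats, under CO2-O2. Under isoflurane it ran from 6.70 to 6.85 in TBA rats, against 6.43 to 6.599 in vehicle rats, so the groups did not overlap in either arm. Slide and treatment cannot be told apart in the isoflurane arm, and under CO2-O2 only TBA rat 3 shared a slide with the vehicle rats. The calls of Slc5a12 and Slc22a8 were not followed over the alternatives or with single arrays left out. No gene of the other 10 marker lists passed in these comparisons. The part of these cells in the cell cycle values was not tested.

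**Figure D2:**
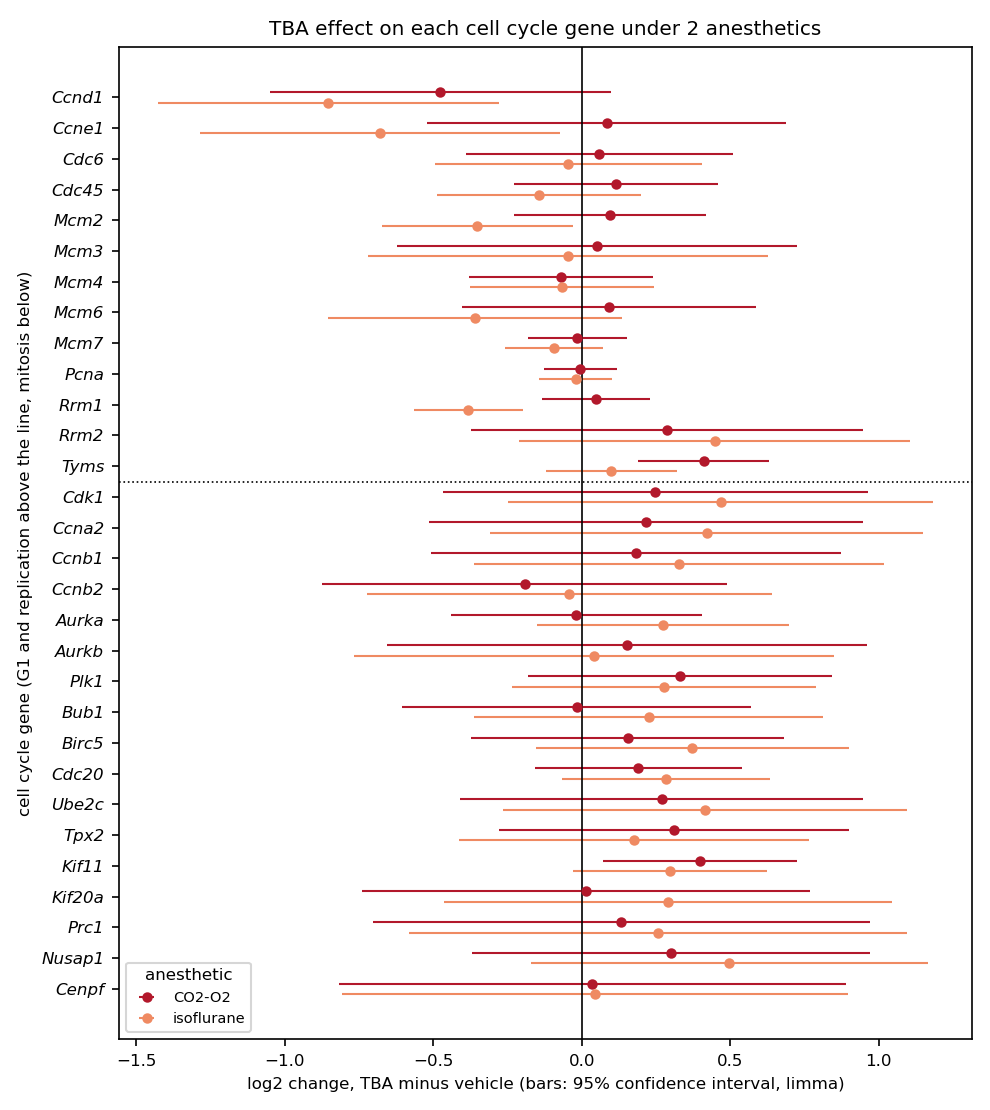
Log2 change, TBA minus vehicle, of each of the 30 genes under CO2-O2 (dark red) and isoflurane (orange), with 95% confidence intervals from limma. The widest intervals belong to mitotic genes such as Cenpf and Prc1, and the narrowest to Pcna, at -0.01 under CO2-O2 and -0.02 under isoflurane.

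Among the G1 cyclins, Ccnd1 encodes cyclin D1, which couples growth signals to G1 entry. It stood at 2.35, 3.24 and 3.33 in TBA rats, against 3.56, 3.54 and 3.25 in vehicle rats, under CO2-O2. Under isoflurane it stood at 3.32, 3.74 and 3.23 in TBA rats, against 4.08, 4.61 and 4.17 in vehicle rats. The groups overlapped under CO2-O2 and did not under isoflurane, where all 3 TBA rats were lower. The log2 change was -0.48 ± 0.26 (SE, adjusted p = 0.435, limma) under CO2-O2 and -0.85 ± 0.26 (adjusted p = 0.138) under isoflurane, and their mean was -0.66 ± 0.18 (adjusted p = 0.0929). The 3 probes of Ccnd1 gave close changes, between -0.48 and -0.47 under CO2-O2 and between -0.90 and -0.81 under isoflurane.

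Ccne1 encodes cyclin E1, the partner of Cdk2 at the start of S phase. Its level was -4.03, -3.03 and -3.28 in TBA rats, against -3.52, -3.70 and -3.37 in vehicle rats, under CO2-O2. Under isoflurane it was -3.82, -2.87 and -3.49 in TBA rats, against -2.69, -2.70 and -2.75 in vehicle rats. The isoflurane groups did not overlap, but the highest TBA rat came close to the lowest vehicle rat, and the change was -0.68 ± 0.27 (SE, adjusted p = 0.233, limma). Under CO2-O2 it was 0.08 ± 0.27 (adjusted p = 0.916).

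The licensing and helicase genes Cdc6, Cdc45, Mcm2, Mcm3, Mcm4, Mcm6 and Mcm7 open replication origins and unwind DNA. None passed the test, and their changes ran from -0.07 to 0.11 under CO2-O2 and from -0.36 to -0.05 under isoflurane. Mcm2, a subunit of the helicase ring, stood at -1.20, -0.82 and -1.07 in TBA rats, against -1.07, -1.15 and -1.16 in vehicle rats, under CO2-O2. With isoflurane, levels were -1.23, -0.70 and -1.15 in TBA rats, against -0.69, -0.52 and -0.81 in vehicle rats. TBA rat 2 fell within the vehicle range there, and the other 2 TBA rats lay below it. The change was 0.10 ± 0.14 (SE, adjusted p = 0.805, limma) under CO2-O2 and -0.35 ± 0.14 (adjusted p = 0.243) under isoflurane. That overlap held for this probe and the second, which gave -0.40 under isoflurane. On the dimmest probe the change was -0.56 and every TBA rat lay below every vehicle rat, at -3.41, -3.27 and -3.61 in TBA rats, against -3.06, -2.83 and -2.74 in vehicle rats. Dimmer probes of Mcm4 disagreed with the one used under isoflurane, one of them at -1.04 against -0.07, and the dimmest probe of Mcm3 gave -0.56 against -0.05.

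Pcna encodes the sliding clamp that holds polymerases on DNA, and was the steadiest gene of the set. It stood at 1.76, 1.77 and 1.77 in TBA rats, against 1.86, 1.70 and 1.77 in vehicle rats, under CO2-O2. In the isoflurane arm, levels were 1.64, 1.65 and 1.70 in TBA rats, against 1.65, 1.69 and 1.71 in vehicle rats. The groups overlapped under both gases. The 95% interval of the change was -0.13 to 0.12 under CO2-O2 and -0.14 to 0.10 under isoflurane.

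Rrm1 and Rrm2 encode the large and small subunits of ribonucleotide reductase, which makes deoxynucleotides. Rrm1 stood at -1.53, -1.34 and -1.55 in TBA rats, against -1.47, -1.53 and -1.56 in vehicle rats, under CO2-O2. Under isoflurane it stood at -1.65, -1.44 and -1.68 in TBA rats, against -1.26, -1.15 and -1.22 in vehicle rats. The CO2-O2 groups overlapped, and under isoflurane every TBA rat was below every vehicle rat. The change was 0.05 ± 0.08 (SE, adjusted p = 0.835, limma) under CO2-O2 and -0.38 ± 0.08 (adjusted p = 0.0736) under isoflurane, the lowest adjusted p of the set. With normexp background correction the isoflurane change was -0.34 and passed (adjusted p = 0.0476), in a setting that called 1334 features in place of 117. The other probes of Rrm1 gave -0.41 and -0.20 under isoflurane.

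Rrm2 stood at 0.48, 1.51 and 1.52 in TBA rats, against 1.04, 0.44 and 1.17 in vehicle rats, under CO2-O2. With isoflurane, levels were 1.21, 1.48 and 0.97 in TBA rats, against 0.64, 0.62 and 1.05 in vehicle rats. Both pairs of groups overlapped. The change was 0.29 ± 0.30 (SE, adjusted p = 0.704, limma) under CO2-O2 and 0.45 ± 0.30 (adjusted p = 0.468) under isoflurane. The 3 dimmer probes of Rrm2 gave 0.24, 0.54 and -0.55 under isoflurane, so one of them, well above background on 10 arrays, ran the other way.

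Tyms encodes thymidylate synthase, which supplies thymidine nucleotides. It stood at -0.51, -0.47 and -0.34 in TBA rats, against -0.99, -0.87 and -0.70 in vehicle rats, under CO2-O2. In the isoflurane arm, levels were -0.61, -0.39 and -0.59 in TBA rats, against -0.52, -0.76 and -0.61 in vehicle rats. All TBA rats were above all vehicle rats under CO2-O2, and the groups overlapped under isoflurane. The change was 0.41 ± 0.10 (SE, adjusted p = 0.138, limma) under CO2-O2, 0.10 ± 0.10 (adjusted p = 0.652) under isoflurane and 0.25 ± 0.07 (adjusted p = 0.0929) for the mean.

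**Figure D3:**
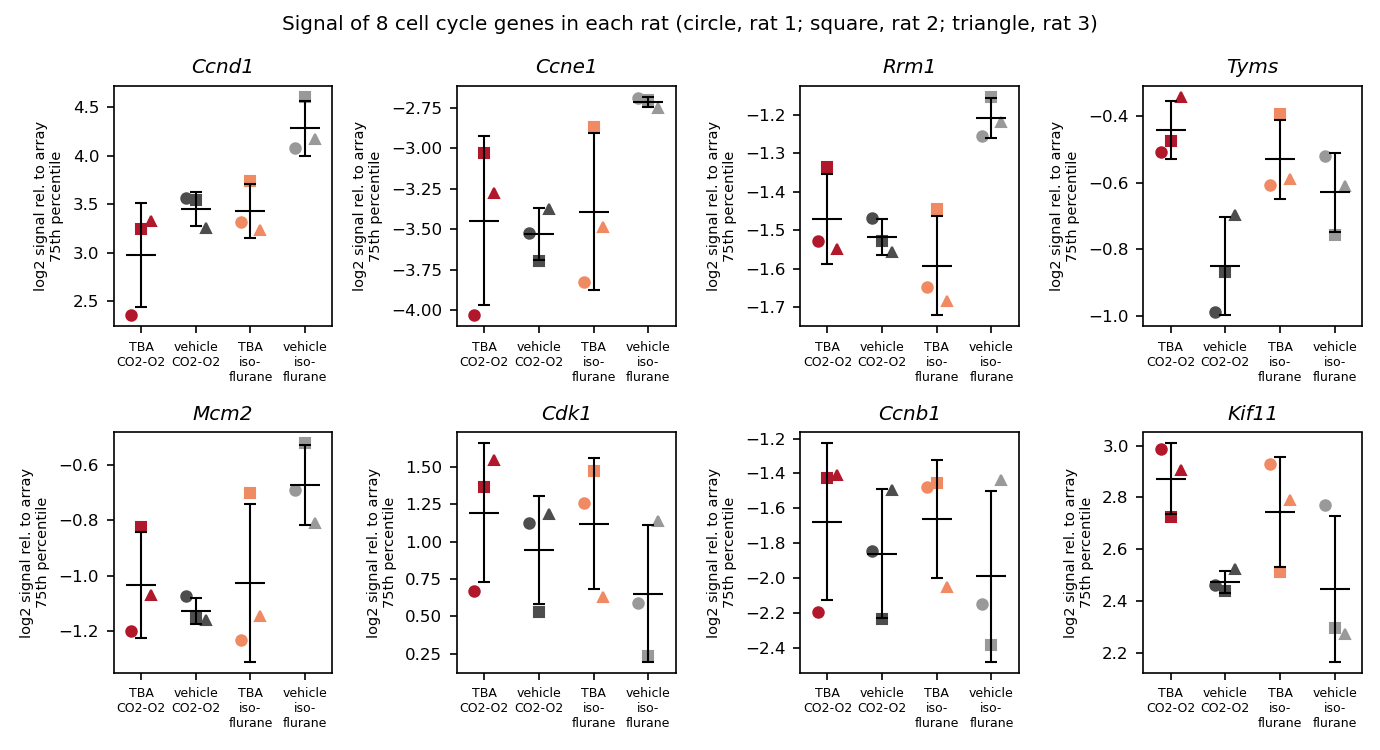
Level of 8 cell cycle genes in each rat (points; circle, square and triangle for rats 1, 2 and 3) with the group mean and SD (bars, n = 3), as log2 signal relative to the 75th percentile of the array. Ccnd1, Ccne1 and Rrm1 are lower in every TBA isoflurane rat than in any vehicle isoflurane rat, while the Cdk1 and Ccnb1 groups overlap.

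Cdk1 is the kinase that starts mitosis. It stood at 0.67, 1.37 and 1.55 in TBA rats, against 1.12, 0.53 and 1.19 in vehicle rats, under CO2-O2. Under isoflurane it stood at 1.26, 1.47 and 0.63 in TBA rats, against 0.59, 0.23 and 1.14 in vehicle rats. TBA rat 1 and vehicle rat 2 were low under CO2-O2. Low values under isoflurane were those of TBA rat 3 and of vehicle rats 1 and 2. The groups overlapped in both arms. The change was 0.25 ± 0.32 (SE, adjusted p = 0.77, limma) under CO2-O2, with a 95% interval of -0.47 to 0.96, and 0.47 ± 0.32 (adjusted p = 0.485) under isoflurane.

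Ccnb1, the cyclin B1 partner of Cdk1, stood at -2.20, -1.43 and -1.41 in TBA rats, against -1.85, -2.24 and -1.50 in vehicle rats, under CO2-O2. With isoflurane, levels were -1.48, -1.45 and -2.05 in TBA rats, against -2.15, -2.38 and -1.44 in vehicle rats. Its groups overlapped as those of Cdk1 did. The change was 0.18 ± 0.31 (SE, adjusted p = 0.829, limma) under CO2-O2 and 0.33 ± 0.31 (adjusted p = 0.629) under isoflurane. The other mitotic cyclins, Ccna2 and Ccnb2, differed by 0.22 and -0.19 under CO2-O2 and by 0.42 and -0.04 under isoflurane, with none past the test.

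Among the mitotic kinases and checkpoint genes, Plk1 encodes polo-like kinase 1, which acts at mitotic entry and on spindle poles. It stood at -0.71, -0.12 and -0.11 in TBA rats, against -0.52, -0.92 and -0.49 in vehicle rats, under CO2-O2. In the isoflurane arm, levels were -0.35, -0.23 and -0.81 in TBA rats, against -0.83, -1.01 and -0.39 in vehicle rats. The groups overlapped in both arms, and the change was 0.33 ± 0.23 (SE, adjusted p = 0.548, limma) under CO2-O2 and 0.28 ± 0.23 (adjusted p = 0.572) under isoflurane. Aurka, a kinase of the spindle poles, Bub1, a kinase of the spindle checkpoint, Birc5 (survivin, of the passenger complex) and Aurkb had changes between -0.02 and 0.16 under CO2-O2 and between 0.04 and 0.37 under isoflurane, and none passed the test. Cdc20, an activator of the anaphase-promoting complex, and Ube2c, its ubiquitin-conjugating enzyme, differed by 0.19 and 0.27 under CO2-O2 and by 0.28 and 0.41 under isoflurane, again with none past the test.

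Kif11 encodes the kinesin that pushes spindle poles apart. It stood at 2.99, 2.72 and 2.91 in TBA rats, against 2.46, 2.44 and 2.52 in vehicle rats, under CO2-O2. Under isoflurane it stood at 2.93, 2.51 and 2.79 in TBA rats, against 2.77, 2.30 and 2.27 in vehicle rats. All TBA rats were above all vehicle rats under CO2-O2, and 1 high vehicle rat made the groups overlap under isoflurane. The change was 0.40 ± 0.15 (SE, adjusted p = 0.27, limma) under CO2-O2, 0.30 ± 0.15 (adjusted p = 0.328) under isoflurane and 0.35 ± 0.10 (adjusted p = 0.115) for the mean. A second probe of Kif11 gave 0.33 under CO2-O2 and 0.26 under isoflurane. The other spindle, kinetochore and cytokinesis genes, Tpx2, Kif20a, Prc1, Nusap1 and Cenpf, had changes between 0.01 and 0.31 under CO2-O2 and between 0.05 and 0.50 under isoflurane, and none passed the test. The isoflurane value of Cenpf is 0.05 on the probe used and -0.38 and -1.13 on dimmer probes. Of 15 genes with several probes above the filter, 3 had a probe of the other sign under CO2-O2 (Aurka, Bub1 and Mcm4) and 3 under isoflurane (Bub1, Cenpf and Rrm2).

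By overlap of the groups alone, Tyms and Kif11 were higher in all 3 TBA rats than in any vehicle rat under CO2-O2, 2 of 30 genes against 11.9% of all features, and 0 of 30 were lower in all of them (9.07%). Ccnd1, Ccne1 and Rrm1 were lower in all 3 TBA rats under isoflurane, 3 of 30 genes against 9.69% of all features, and 0 of 30 were higher in all of them (14.3%).

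Whether the TBA effect differed between the anesthetics was tested by the interaction, isoflurane minus CO2-O2. It passed for 0 of 30 genes and 0% of all features (limma), and 1 gene of the set was under an unadjusted p of 0.05 (12.1% of all features). That gene was Rrm1, with a difference of -0.43 ± 0.12 (SE, adjusted p = 0.257). The median difference was 0.15 over the mitotic genes and -0.26 over the G1 and replication genes, against 0.01 over all features. The sign of the mitotic median turned in 3 of 22 alternatives and that of the G1 and replication median in none.

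Isoflurane was also set against CO2-O2 within each treatment, to ask whether these genes differed with the gas given at death. In vehicle rats 0 of 30 genes passed (limma), where 0.105% of all features did, and 5 were under an unadjusted p of 0.05 (18.7% of all features), all higher with isoflurane. They were Rrm1 at 0.31 (adjusted p = 0.119), Ccnd1 at 0.83 (adjusted p = 0.149), Mcm2 at 0.45 (adjusted p = 0.157), Ccne1 at 0.82 (adjusted p = 0.167) and Tyms at 0.22 (adjusted p = 0.263). By overlap, Ccnd1, Ccne1, Mcm2, Mcm6 and Rrm1 were higher in every isoflurane rat, 5 of 30 genes against 14.9% of all features, and Mcm7 was lower in every one, 1 of 30 against 14.2%. This comparison and the TBA comparison under isoflurane share the 3 vehicle isoflurane rats, in which Ccnd1, Ccne1, Mcm2 and Rrm1 had their highest group means. The vehicle isoflurane rats lay on slide 2 and the vehicle CO2-O2 rats on slide 1, so a fit with slide as a fixed term rests on the TBA CO2-O2 rats, which lay on both. In that fit 0 of 30 genes passed (limma), Rrm1 was at 0.19, Ccnd1 at 1.37, Mcm2 at 0.39, Ccne1 at 1.07 and Tyms at 0.37, and the median of the mitotic genes turned to 0.23, against -0.21 without the term. In TBA rats 0 of 30 genes passed (0.00676% of all features), and 1 was under an unadjusted p of 0.05 (10.8% of all features), Mcm7 at -0.18 ± 0.07 (SE, adjusted p = 0.42). The TBA isoflurane rats lay alone on slide 3, so gas and slide cannot be told apart in TBA rats. By overlap, Pcna was lower in every isoflurane rat, 1 of 30 genes against 7.22% of all features, and 0 of 30 were higher in every one (7.92%). Second probes of these genes differed. On that of Pcna the TBA groups overlapped, at -0.01, 0.03 and 0.17 with isoflurane, against 0.20, 0.09 and 0.24 with CO2-O2. That of Mcm7 had TBA group means of -1.48 with isoflurane and -1.52 with CO2-O2, the other direction. Its vehicle groups overlapped, at -1.60, -1.40 and -1.33 with isoflurane, against -1.32, -1.43 and -1.48 with CO2-O2.

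The mitotic genes varied between rats of the same group more than most features did. The median SD within groups was 0.41 over the 17 mitotic genes and 0.20 over the 13 G1 and replication genes, against 0.15 over all features, and Pcna had 0.04. In each group 1 rat was the lowest of its 3 in 16 of the 17 mitotic genes. It was rat 1 of TBA CO2-O2, rat 2 of vehicle CO2-O2, rat 3 of TBA isoflurane and rat 2 of vehicle isoflurane, and these rats were lowest in 32.9%, 32.0%, 36.8% and 35.7% of all features. Their mitotic genes lay on average 0.46, 0.32, 0.39 and 0.32 below the group means in log2 units. The 4 rats lay on slides 2, 1, 3 and 2. The share of probes well above background was the lowest of the group in 3 of them, at 65.5% in vehicle CO2-O2 rat 2, 61.6% in TBA isoflurane rat 3 and 62.3% in vehicle isoflurane rat 2, but was 68.4% in TBA CO2-O2 rat 1. Its part in the pattern was not tested.

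**Figure D4:**
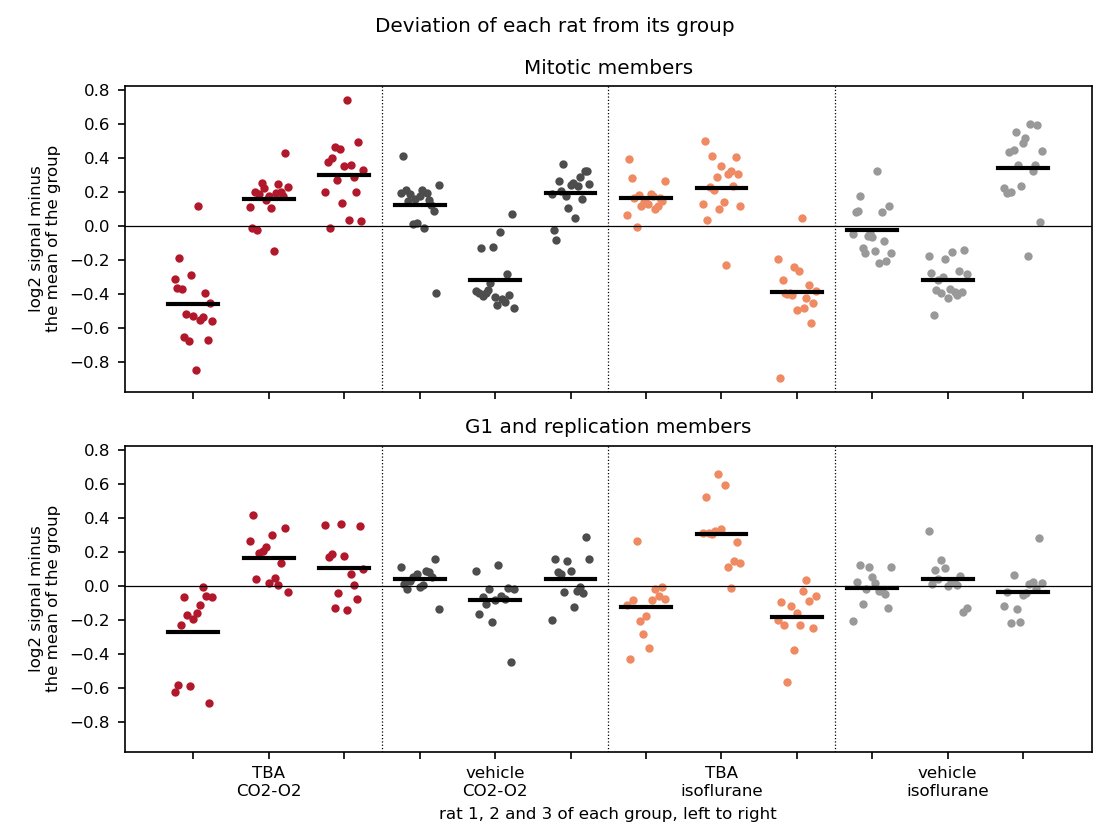
Deviation of each gene from the mean of its group, in log2 units, for each rat (columns, rats 1 to 3 of each group from left to right); points are genes and black bars their mean, with 17 mitotic genes above and 13 G1 and replication genes below. The mitotic genes of a rat move together, with means down to -0.46 in TBA CO2-O2 rat 1, and the G1 and replication genes follow less closely.

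Correlations of these deviations over the 12 arrays describe how closely genes moved together; deviations within a group of 3 sum to 0, and all genes of an array share its RNA, labelling and scaling. Over 136 pairs of mitotic genes the median r was 0.89, and all 14 pairs below 0 involved Kif11. Without Kif11 the median over 120 pairs was 0.92 and the lowest 0.38. Over 78 pairs of G1 and replication genes the median was 0.59, and over 221 pairs across the classes it was 0.43.

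Cdk1 followed the mean of the other mitotic genes most closely, at r = 0.99, with Plk1 also at 0.99. Kif11 had r = -0.24 and its second probe -0.17, so the gene stood apart on both probes that passed the filter. Another probe of Kif11 went the other way, at r = 0.47. It was well above background on only 4 arrays and did not pass the filter. Its mean level was -6.04, against 2.64 and -0.31 for the probes that passed. Tpx2, a spindle assembly factor, had 0.58. Rrm2, a replication gene by role, followed the mitotic genes at 0.92 and the other G1 and replication genes at 0.68. Its dimmer probes followed the mitotic genes at 0.22, 0.82 and 0.87, and were well above background on 12, 12 and 10 arrays. Mcm3 was closest to the G1 and replication genes at 0.96, and Pcna followed neither class, at 0.21 with the mitotic genes and 0.04 with the others.

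Over 11649 named features, the 5 whose deviations were most like the mean of the 28 genes well above background on all arrays were Cdca3 (r = 0.98), Kif22 (0.98), Spag5 (0.97), Knstrn (0.96) and Kif18b (0.96). Of 29 further mitotic factors listed beside the set, 17 (58.6%) had r over 0.8 with the mitotic mean, against 0.835% of all features. The marker lists of other cell types were set against the same means. With the mitotic mean, the mean of the 5 podocyte genes had r = -0.83, injured tubule 0.54, red blood cells -0.50, lymphocytes 0.48, fibroblasts 0.47, endothelium -0.40, distal tubule and collecting duct 0.27, macrophages 0.24, neutrophils -0.20, thick ascending limb -0.16 and proximal tubule 0.13. With the mean of the G1 and replication genes, injured tubule had r = 0.82, lymphocytes and macrophages 0.62 each, red blood cells -0.61, podocytes -0.51, proximal tubule 0.44 and thick ascending limb -0.33, and the other lists lay between 0.03 and 0.13 or at -0.05. For single genes the median r with the mitotic mean was -0.42 in podocytes, 0.21 in injured tubule and -0.30 in red blood cells. These were weaker than the values of the list means. The part of these cell types in the variation was not tested.

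Genes of the wider pathway were taken from lists that held 125 symbols, of which 93 were tested. Under CO2-O2 and under isoflurane none of the 93 passed (limma), with 12 and 11 at an unadjusted p under 0.05, against 14.3% and 17.8% of all features, and for the mean TBA effect 1 of 93 passed, against 1.88% of all features. That gene was Wee1, the kinase that holds Cdk1 inactive. Wee1 stood at 0.66, 0.73 and 1.03 in TBA rats, against 1.27, 1.05 and 1.01 in vehicle rats, under CO2-O2. With isoflurane, levels were 1.14, 1.29 and 1.28 in TBA rats, against 1.54, 1.80 and 1.74 in vehicle rats. The groups did not overlap under isoflurane and overlapped by 1 TBA rat under CO2-O2. Its mean change was -0.38 ± 0.08 (SE, adjusted p = 0.0491). The call was lost under quantile normalization (adjusted p = 0.0607), median scaling (0.056), no filter on dim probes (0.128), slide as a random block (0.061), scan day in the fit (0.184) and the replicate block (0.0782). Leaving out any of the 12 arrays but TBA CO2-O2 rat 3 also ended it, with an adjusted p of up to 0.114, and without that rat it was 0.0249. Only that TBA rat shared a slide with the CO2-O2 vehicle rats, so without it slide and treatment cannot be told apart in that arm.

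The other lists held no gene past the test. Mybl2, a MYB factor of the complex that activates mitotic genes, differed by 0.55 ± 0.12 for the mean effect (SE, adjusted p = 0.0539, limma), and Myc, a growth regulator, by 0.41 ± 0.13 (adjusted p = 0.138). Over the alternatives run, the adjusted p of Mybl2 ran from 0.0437 to 0.161. Ccnf (cyclin F) differed by 0.33 and Ccnd2 (cyclin D2) by -0.33. The CDK inhibitors Cdkn1a (p21) and Cdkn2c (p18) differed by 0.11 and 0.12. Rpa3, a subunit of the single-strand binding protein of replication, differed by -0.23 (adjusted p = 0.0608) and Rfc1, of the clamp loader, by 0.09. Of the further mitotic factors, Ndc80 of the kinetochore differed by 0.37 and Smc4 of condensin by 0.14.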

How the data were processed

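Cy3-labelled cRNA of 12 rats was hybridised to one-colour Agilent arrays. The deposited scanner files give an intensity per spot from Agilent Feature Extraction (10.7.1.1), which had subtracted background and removed trends across each array, per the file headers. The authors' deposited series table, by its values a linear ratio to the 75th percentile, served as an alternative. Its columns matched scanner files of the right group under different replicate numbers, and the numbers used are those of the scanner files.

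The value analysed was log2 processed signal minus the 75th percentile of the array, without control spots and outlier spots. RefSeq accessions (GRCr8, names only) gave 27460 of 61657 probes 1 symbol, 0 several and 34197 none. A probe was kept if it was well above background on the 3 arrays of some group (40216 probes), and the brightest per symbol was used, which gave 29603 features. Group means were fitted with limma 3.58.1 (R 4.3.3; lmFit, eBayes) and no other term. Adjustment was by Benjamini-Hochberg over all features, at 0.05. The fit was tested on simulated data.

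The genes and lists were chosen with earlier results of these data known. Levels by array are given for the 4 genes with the lowest p in each TBA comparison and for Cdk1, Ccnb1, Ccnd1, Pcna, Mcm2 and Rrm2. Of each pathway list, genes past the threshold, or otherwise the 2 with the lowest p for the mean TBA effect, are named. Alternatives changed the background correction, scaling, filter, choice of probe, slide, scan day, replicate block, arrays in the fit and single arrays left out. Slide as a fixed term set the first slide against the others, the same split as scan day. Where both were fitted they gave the same values, so slide and scan day cannot be told apart there. The number of arrays limits the precision.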

Additional observations from a re-analysis of the deposited data

How the results depend on the processing

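The count of cell cycle genes past the threshold was 0 in all 6 comparisons under every alternative that gave a value, except that normexp background correction gave 1 (Rrm1) for TBA under isoflurane; the cause was not tested. Rrm1 was lower in TBA rats there too, and no other gene passed, so this says little about direction. Among the values not past the threshold, over the TBA comparisons, the sign turned in 12 of 90 with scan day in the fit. It turned in 9 of 90 with normexp and in up to 10 of 90 with 1 array left out. With slide as a fixed term it turned in 8 of 30, all under CO2-O2. No other setting turned more than 6. With arrays left out in turn, the median change of the 30 genes ran from 0.01 to 0.33 under CO2-O2, from 0.03 to 0.32 under isoflurane and from 0.02 to 0.24 for the mean effect. Same-numbered rats of different groups had deviations that correlated between -0.13 and 0.13. Rats with different numbers were not compared in this way, so these values cannot show whether a number marks a shared block. With the replicate block 0 cell cycle genes passed, and the features passed were 3, 0 and 167, against 44, 117 and 558 without it. Features passed for TBA under isoflurane were 1334 with normexp, 308 with median scaling, 51 with quantile normalization, 3 with no filter on dim probes and 0 with slide as a random block. With slide as a fixed term the CO2-O2 effect rests on 1 TBA array, where the mitotic median was 0.45, Tyms gave 0.51, Kif11 0.43, Cdk1 0.60 and Ccnd1 -0.12, and the isoflurane effect could not be fitted. Cdc6 and Aurkb were near background on some arrays, which limits their values. The SE of their change under CO2-O2, 0.20 and 0.36, lay below those of Prc1 (0.37) and Cenpf (0.38).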
